A study of Mus musculus with 7 samples.

Results

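Chromosome 6 of the mouse carries, between 85000000 and 93000000 of the mm10 genome, a stretch around the long intergenic non-coding RNA gene *4933427D06Rik*. All peaks of open chromatin lying wholly within these bounds were taken, which gave 560 of the 90376 peaks of the table, annotated to 101 genes, beside 4473 peaks on the rest of chromosome 6. The span was chosen by the difference in accessibility between *Scnn1b*-Tg and wild-type (WT) airway macrophages (AMs) at *4933427D06Rik* in these same libraries. The differences between genotypes reported below are therefore descriptions and carry no test. The values that chose the span were those of the peaks at *4933427D06Rik*, and its outer bounds were round coordinates: the first peak inside, in intron 1 of *Exoc6b*, had a log2 fold change of 0.67 and the nearest peak outside, assigned to *Cyp26b1*, 0.26, while the last peak inside, near *Prickle2*, had 0.74 and the nearest peak beyond, near *Magi1*, -0.15.

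Open chromatin was profiled by ATAC-seq, where a transposase inserts adapters into accessible DNA, in freshly sorted AMs of C57BL/6 mice. The WT group had 3 libraries and the *Scnn1b*-Tg group 4. *Scnn1b*-Tg mice overexpress the beta subunit of the epithelial sodium channel from the club cell secretory protein promoter, which is active in airway epithelium. The paper found no SCNN1B protein in AMs of either genotype by fluorescence microscopy. *Scnn1b*-Tg mice develop muco-obstructive lung disease. The mice were 6-week-old females, with littermates of both genotypes, and neither genotype had been treated. AMs were sorted from digested lung as CD45+ Siglec-F+ CD11c+ cells.

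Libraries held 20971521 to 56121809 reads in peaks, of which 0.63 to 0.67% fell in the span. A span peak had a median of 87 to 237.5 reads per library. On the first principal component over all peaks, which held 43.6% of the variance, WT replicate 3 and *Scnn1b*-Tg replicate 4 stood apart from the other 5 libraries, with scores of -76.3, -32.3 and 109.6 in WT against -90.4, -19.7, 8.1 and 101.0 in *Scnn1b*-Tg. Of 12 AM marker genes 11 had a peak within 1000 bp of a transcription start (*Siglec5* had none), and their summed values were 16299 to 20567 in WT against 15827 to 21480 in *Scnn1b*-Tg libraries. No such peak was present at *Cd3e*, *Cd79a*, *Ly6g*, *Mpo* or *Sftpc*, which mark T cells, B cells, neutrophils and alveolar epithelium. Other markers of these cells, and *Scgb1a1* of the airway epithelium, did have one. The values over all libraries were 798 to 1135 at *Cd3d*, 478 to 742 at *Lck*, 1069 to 1834 at *Ms4a1*, 1030 to 1441 at *S100a8* and 671 to 818 at *Scgb1a1*. Promoter peaks were present for 2 of 3 T cell, 1 of 3 B cell, 2 of 4 neutrophil and 3 of 4 epithelial markers. Their summed values were 1615 to 1761, 1100 to 1787, 1135 to 1463 and 1180 to 1462 in the WT libraries and 1468 to 1676, 1069 to 1834, 1056 to 1368 and 1178 to 1581 in the *Scnn1b*-Tg libraries, so the genotypes overlapped for each list, and their part in the results was not tested. Fewer cells of a type and lower accessibility per cell cannot be told apart in bulk libraries.

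Open chromatin marks promoters, enhancers and sites bound by insulator proteins. A promoter peak covers the start of a gene, whereas peaks within introns and between genes are often enhancers, which act on promoters at a distance and differ more between cell types and states. Macrophage enhancers are commonly bound by PU.1, C/EBP, AP-1 and IRF factors. *4933427D06Rik* is annotated as a non-coding RNA with no assigned function. Its neighbours encode well-studied proteins, among them the replication helicase subunit MCM2, the lipid-hydrolysing enzyme monoacylglycerol lipase (*Mgll*), the late endosome GTPase RAB7 and GATA2, a transcription factor of blood stem cells and mast cells.

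The gain was laid out as a block of 20 neighbouring peaks, from 88957746 to 89065643 (107.9 kb), all within intron 1 of *4933427D06Rik*. The block is the run of span peaks with the largest sum of log2 fold change minus 0.5. In GENCODE M21 *4933427D06Rik* runs on the plus strand from 88950683 to 89110030 in its longest transcript, whose exons 1, 2 and 3 are 31, 73 and 2363 bp long, and 3 shorter transcripts start within intron 1 of the longest one, the first of them at 89096110. No block peak overlapped an exon of any of the 4 transcripts, and the nearest lay 7.06 kb from the first start. The difference was large from the first block peak on and smaller towards the end of the block. No peak lies in the 29.7 kb before the block, so how sharply the gain begins cannot be read. The first 14 block peaks, up to 89000887, made up a core of 43.1 kb in which every log2 fold change exceeded 1. The core is the run given by the same score with 1 subtracted in place of 0.5. The 6 later peaks, after a gap of 7.32 kb, had smaller differences.

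The sequences below are those of the peaks that set the bounds of the gain, of the core peaks with the highest value and the largest fold change, and of the peak just before the block. The DNA on each side can thus be compared at the start of the block only. The first peak after the core and the first after the block are not shown. Each is the plus strand of the central 300 bp (the whole peak where shorter) from the RefSeq GRCm38 genome, and capitals mark matches, on either strand, to the strings TGANTCA for AP-1, GAGGAAGT for PU.1, TTGCNNAA for C/EBP, GAAANNGAA for IRF, GGGNNTTTC for NF-kB, AGNNGGCGC for the CTCF core and AGATAA for GATA factors.
Block peak 1, chr6:88958030-88958329: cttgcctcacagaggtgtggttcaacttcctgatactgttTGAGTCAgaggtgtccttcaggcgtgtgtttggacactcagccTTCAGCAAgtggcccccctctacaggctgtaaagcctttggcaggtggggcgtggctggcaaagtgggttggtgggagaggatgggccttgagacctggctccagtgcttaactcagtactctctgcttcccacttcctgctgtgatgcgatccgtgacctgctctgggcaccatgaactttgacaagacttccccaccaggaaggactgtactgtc
Block peak 7, chr6:88973922-88974221: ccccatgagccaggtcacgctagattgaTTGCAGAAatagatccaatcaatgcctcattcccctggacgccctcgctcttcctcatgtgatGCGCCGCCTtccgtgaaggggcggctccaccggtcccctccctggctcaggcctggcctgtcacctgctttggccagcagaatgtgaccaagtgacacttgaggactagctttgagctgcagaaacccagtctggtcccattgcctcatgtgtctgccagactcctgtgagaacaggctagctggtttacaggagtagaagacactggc
Block peak 12, chr6:88999405-88999670: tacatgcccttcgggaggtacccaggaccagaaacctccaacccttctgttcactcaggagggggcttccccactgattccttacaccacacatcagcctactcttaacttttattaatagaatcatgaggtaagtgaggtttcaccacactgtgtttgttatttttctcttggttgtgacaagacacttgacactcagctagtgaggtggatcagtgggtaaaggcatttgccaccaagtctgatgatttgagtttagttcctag
Block peak 14, chr6:89000456-89000755: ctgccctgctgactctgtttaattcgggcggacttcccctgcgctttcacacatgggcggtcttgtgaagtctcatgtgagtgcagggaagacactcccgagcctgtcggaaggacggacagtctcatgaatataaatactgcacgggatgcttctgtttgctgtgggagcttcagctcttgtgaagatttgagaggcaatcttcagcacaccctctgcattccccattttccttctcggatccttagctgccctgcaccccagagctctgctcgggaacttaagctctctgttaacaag
Block peak 20, chr6:89065070-89065369: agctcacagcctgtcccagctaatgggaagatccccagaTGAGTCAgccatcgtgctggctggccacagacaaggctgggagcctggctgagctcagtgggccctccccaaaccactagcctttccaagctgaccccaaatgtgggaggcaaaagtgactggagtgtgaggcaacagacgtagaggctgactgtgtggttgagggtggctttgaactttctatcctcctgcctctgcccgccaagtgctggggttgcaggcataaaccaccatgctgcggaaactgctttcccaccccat
Nearest peak before the block, chr6:88927691-88927990: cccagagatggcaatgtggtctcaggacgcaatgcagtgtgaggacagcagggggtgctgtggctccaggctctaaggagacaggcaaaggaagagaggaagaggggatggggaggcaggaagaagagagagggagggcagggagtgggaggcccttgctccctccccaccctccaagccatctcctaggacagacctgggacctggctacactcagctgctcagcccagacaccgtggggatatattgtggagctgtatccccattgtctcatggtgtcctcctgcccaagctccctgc

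Block peak 1 held 1 AP-1 and 1 C/EBP string and block peak 20 held 1 AP-1 string. Block peak 7 held 1 C/EBP string and 1 CTCF core string. None of the 7 strings occurred in these windows of block peaks 12 and 14 or of the nearest peak before the block. Over the 20 block windows the AP-1 string was present in 6 (30.0%), against 12.1% of all peaks, 11.4% of the rest of chromosome 6 and 11.4% of the span. The C/EBP string was present in 5 (25%, all peaks 16.2%), the NF-kB string in 3 (15%, all peaks 4.16%), the PU.1 string in 2 (10.0%, all peaks 8.66%), the GATA string in 2 (10.0%, all peaks 11.4%), the IRF string in 1 (5.00%, all peaks 9.91%) and the CTCF core string in 1 (5.00%, all peaks 5.21%). Block windows are windows of 1 intron, and a match is a run of letters, not a bound site. The median GC content of block peaks was 52.3%, beside 50.4% in the span outside the block and 47.3% on the rest of chromosome 6. A median of 10.1% of their bases was repeat-masked, beside 12.0% on the rest of chromosome 6.

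The core began at full size. At block peak 1 (88957746 to 88958613) the normalized read count, which is the read count scaled by 1 factor per library, was 47.6, 46.2 and 75.4 in the WT libraries against 101, 195, 327 and 307 in the *Scnn1b*-Tg libraries. Every *Scnn1b*-Tg library was above every WT library, and *Scnn1b*-Tg replicate 1 was the lowest of its genotype. The log2 fold change was 1.92 (SE 0.37). Within 7 kb of it, block peaks 2 to 5 had WT means of 6.48 to 23.7 and *Scnn1b*-Tg means of 27.7 to 92.6, with log2 fold changes of 1.67 to 2.02. At block peak 2, *Scnn1b*-Tg replicate 1 had 29.2, just below the highest WT library (29.6), and the other 3 *Scnn1b*-Tg libraries had 106 to 128.

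The middle of the core held further strong peaks. Block peak 6 (88971542 to 88972333) had 44.2, 68.8 and 79.9 in WT against 131, 228, 210.3 and 265 in *Scnn1b*-Tg, giving a log2 fold change of 1.68 (SE 0.28). Block peak 7 (88973616 to 88974528), the core peak of highest mean value, had 32.3, 74.7 and 102 in WT against 109.6, 255, 264 and 299 in *Scnn1b*-Tg. At both peaks the genotypes did not overlap, though at block peak 7 the lowest *Scnn1b*-Tg library was close to the highest WT library. Block peaks 8 and 9 had the smallest differences of the core, with log2 fold changes of 1.31 and 1.04. At block peak 9, *Scnn1b*-Tg replicate 1 had 6.09 (5 reads) and lay among the WT libraries, at 4.25, 9.49 and 16.0.

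The core ended with its largest fold changes, at the peaks with the fewest reads. Block peak 12 (88999405 to 88999670) had 1, 1 and 5 reads in WT against 10, 12, 16 and 39 in *Scnn1b*-Tg, which as normalized read counts are 0.85, 1.19 and 5.71 against 12.2, 10.9, 25.3 and 23.9. No value of the table was 0 and 1 read was the smallest value of each library, so the WT values of 1 read may be a floor. Block peak 13, 182 bp further, had 9 reads in all WT libraries together and 93 in all *Scnn1b*-Tg libraries, with means of 3.19 ± 1.35 (SD, n = 3) and 24.5 ± 12.9 (SD, n = 4). The log2 fold changes were 2.57 (SE 0.64) and 2.51 (SE 0.53). Block peak 14, the last of the core (89000324 to 89000887), had 17.0, 11.9 and 32.0 in WT against 42.6, 48.0, 93.3 and 70.6 in *Scnn1b*-Tg, again without overlap.

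After the core the difference fell at once. Block peak 15 (89008205 to 89010148), the widest of the block, had 117, 199 and 144 in WT against 167, 295, 258 and 224 in *Scnn1b*-Tg, giving a log2 fold change of 0.62 (SE 0.24), and *Scnn1b*-Tg replicate 1 lay within the WT values. A gap of 32.5 kb followed. Block peak 16 (89042624 to 89043545) had 271 ± 99.0 (SD, n = 3) in WT against 322 ± 124 (SD, n = 4) in *Scnn1b*-Tg, giving a log2 fold change of 0.22 that is smaller than the spread within either genotype, and block peak 18 had 0.28. Block peaks 17 and 19 had log2 fold changes of 0.56 and 0.75. The last peak of the block, block peak 20 (89064796 to 89065643), had 54.4, 66.4 and 83.4 in WT against 69.4, 146, 168 and 183 in *Scnn1b*-Tg, giving a log2 fold change of 0.98 (SE 0.32). Here 3 of 4 *Scnn1b*-Tg libraries were above every WT library. Of the 6 later peaks only block peak 17 showed no overlap between genotypes.

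**Figure D1:**
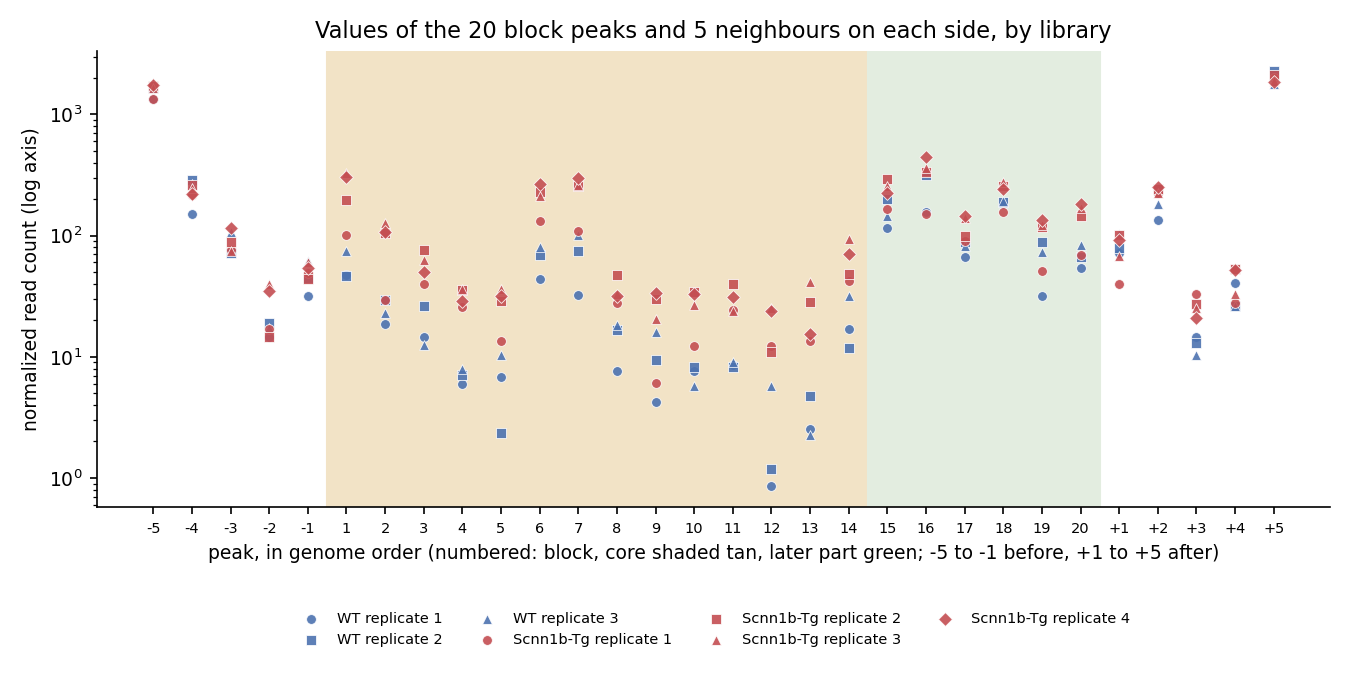
Normalized read count (log axis) of each library at the 20 block peaks and at the 5 peaks on each side, in genome order; blue symbols are WT and red symbols *Scnn1b*-Tg libraries, and the symbol gives the replicate. The red symbols lie above the blue ones at 12 of the 14 core peaks, and the colours mix at the neighbours apart from the third peak after the block.

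Core peaks were weakly open in WT AMs. Their median WT mean was 12.0, beside 116 for the 6 later peaks of the block, 143 for the span outside the block and 122 for the rest of chromosome 6. Per kb of peak the WT median was 34.4 in the core and 180 on the rest of chromosome 6, and the *Scnn1b*-Tg median was 113 in the core and 182 on the rest of chromosome 6. In sum, the core held 311 ± 90.6 (SD, n = 3) normalized reads in WT against 1103 ± 351 (SD, n = 4) in *Scnn1b*-Tg, a ratio of 3.54, with a range over single peaks of 2.28 to 7.67. For the later part the sums were 823 ± 188 (SD, n = 3) and 1158 ± 320.1 (SD, n = 4), a ratio of 1.41. Since fold changes were taken on the log2(value + 1) scale, those of the lowest peaks are understated. The core was picked for its fold changes, and a peak could enter the peak set through the *Scnn1b*-Tg libraries alone. Low WT values and high ratios in the core are therefore partly fixed by this choice.

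The libraries of 1 genotype did not show the gain alike. Averaged over the 20 block peaks, the log2 value of WT libraries was 4.38, 4.81 and 5.02, and that of *Scnn1b*-Tg libraries 5.44, 6.35, 6.47 and 6.42. *Scnn1b*-Tg replicate 1 thus lay 0.70 above the WT mean, and the other 3 *Scnn1b*-Tg libraries 1.61 to 1.73 above it. The genotype means were 4.74 ± 0.33 (SD, n = 3) and 6.17 ± 0.49 (SD, n = 4), a mean log2 fold change of 1.43, which became 1.68 without *Scnn1b*-Tg replicate 1. It was the lowest *Scnn1b*-Tg library at 18 of the 20 block peaks (90.0%), beside 34.8% of the other span peaks and 26.9% of the rest of chromosome 6, and WT replicate 1 was the lowest WT library at 13 (65.0%), beside 38.7% and 32.2%. Each WT sample shares its title number and batch number with 1 *Scnn1b*-Tg sample, and 1 *Scnn1b*-Tg sample shares neither with any WT sample. These are not the numbers of the columns. Which libraries share one, and whether the replicates numbered 1 share a batch, therefore cannot be told, and the fit held genotype alone. Over the 6 later peaks the mean log2 value was 6.43, 7.09 and 7.03 in WT against 6.71, 7.56, 7.68 and 7.73 in *Scnn1b*-Tg. *Scnn1b*-Tg replicate 1 thus lay 0.14 below the WT mean, though above WT replicate 1, and the other 3 *Scnn1b*-Tg libraries lay 0.70 to 0.88 above the WT mean.

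The bounds of the gain were then read library by library, by the same score on the difference between 1 *Scnn1b*-Tg library and the WT mean. The offset is the value subtracted from each log2 difference, 0.5 for the block. *Scnn1b*-Tg replicate 1 gave exactly the 14 core peaks at an offset of 0.5. Replicates 2, 3 and 4 gave exactly these 14 peaks at an offset of 1, where replicate 1 gave 4 of them, from 88990400. At an offset of 0.5 the run was wider in the other 3. Replicate 2 gave 24 peaks, up to 89252079. Replicate 3 gave 22 peaks, from 88926717 to 89065643. Replicate 4 gave 26 peaks, from 88926717 to 89252079. The core, from 88957746 to 89000887, is itself the run that an offset of 1 gives on the genotype means, which hold these same libraries. That replicates 2, 3 and 4 gave it at this offset is therefore partly fixed in advance. Replicate 1 gave the core only at an offset of 0.5. The outer bounds at an offset of 0.5 moved between 88926717 and 89252079 with the library. An offset of 0.25 on the genotype means also gave the 26 peaks from 88926717 to 89252079, with a mean log2 fold change of 1.19. The end of the block moved to 89000887 without WT replicate 1, and to 89010148 without *Scnn1b*-Tg replicate 3 or *Scnn1b*-Tg replicate 4. Its start moved to 88926717 without *Scnn1b*-Tg replicate 2 and stayed at 88957746 when any other single library was left out.

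**Figure D2:**
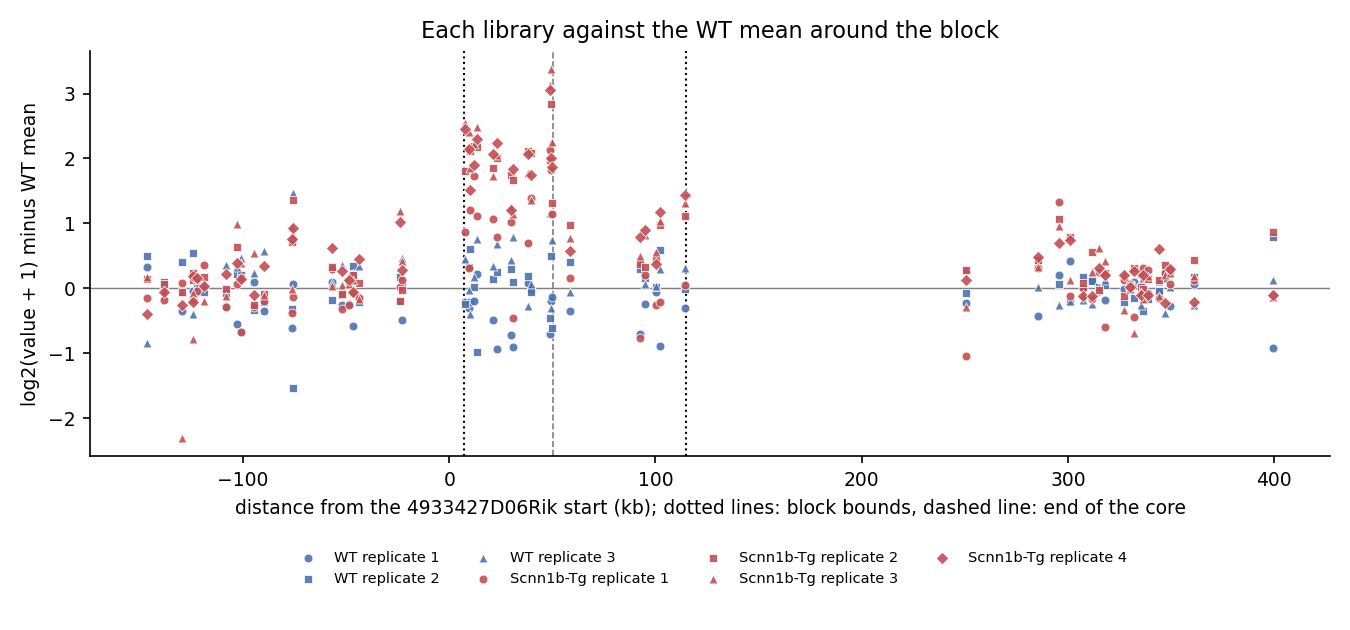
Difference of each library's log2(value + 1) from the WT mean, for the peaks 150 kb before to 400 kb after the *4933427D06Rik* start, against distance from that start in kb; dotted lines mark the block bounds and the dashed line the end of the core. Red *Scnn1b*-Tg symbols rise at the first dotted line, reach their highest values at the dashed line, and on both sides of the block overlap the blue WT symbols at every peak but the third after the block.

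To the left the block was bounded by an empty stretch of 29.7 kb. The peak just before it (88927604 to 88928078), an intergenic peak 17.0 kb from *Tpra1*, which encodes a seven-transmembrane protein, had 31.5, 45.1 and 61.7 in WT against 48.7, 43.5, 60.1 and 54.0 in *Scnn1b*-Tg, giving a log2 fold change of 0.20 with all *Scnn1b*-Tg libraries inside the WT range. The next peak out (88926717 to 88927193) had 14.5, 19 and 17.1 in WT against 17.0, 14.5, 39.5 and 35.0 in *Scnn1b*-Tg. There *Scnn1b*-Tg replicates 3 and 4 were above WT and replicates 1 and 2 were not. The remaining 3 of the 5 nearest peaks lay at *Tpra1* itself and had log2 fold changes of 0.01 to 0.05. Over the 10 peaks within 100 kb the median was 0.13, with 8 higher in *Scnn1b*-Tg and values of -0.02 to 0.74. From 100 to 500 kb the median was -0.01 over 52 peaks, of which 25 were higher in *Scnn1b*-Tg.

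To the right the next peak was 135 kb away. It lay in an exon of *Gm839* (89200768 to 89201516) and had 71.4, 79.5 and 103 in WT against 40.2, 102, 68.0 and 91.5 in *Scnn1b*-Tg, giving a log2 fold change of -0.23. Beyond it came an intergenic peak of *Gm839* (log2 fold change 0.39) and 3 peaks of the non-coding gene *4930512J16Rik*. At the first of these 3 (89246409 to 89246708) the values were 14.5, 13 and 10.3 in WT against 32.9, 27.2, 25.3 and 20.9 in *Scnn1b*-Tg, giving a log2 fold change of 1.01 (SE 0.34) without overlap. The other 2 had 0.39 and -0.03, the latter at a strong peak with means near 2000. Up to 500 kb from the block, 28 of 32 peaks at *Gm839*, *4930512J16Rik*, *Plxna1* and *Chchd6* were higher in *Scnn1b*-Tg, with a median of 0.15, beside 47.8% of all peaks. The median differences from the WT mean were 0.12, 0.32, 0.20 and 0.23 in the 4 *Scnn1b*-Tg libraries and -0.02, -0.01 and 0.04 in the 3 WT libraries. *Scnn1b*-Tg was higher without overlap at 2 of the 32 peaks, beside 1.92% of all peaks. They were the first *4930512J16Rik* peak and a later-intron peak assigned to *Plxna1* (89448846 to 89449184). The latter had 19.6, 15.4 and 21.7 in WT against 29.2, 27.2, 52.2 and 30.7 in *Scnn1b*-Tg, giving a log2 fold change of 0.81. From 500 to 1000 kb the median was 0.03 over 9 peaks.

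The coding genes that flank the block were read at the strongest peak within 1000 bp of their GENCODE start. Log2 fold changes there ran from -0.05 (*Abtb1*) to 0.30 (*Plxna1*), and the genotypes overlapped at each gene with such a peak. *Tpra1*, 55.5 kb to the left, had a promoter value of 1351, 1651 and 1810 in WT against 1332, 1721, 1667 and 1737 in *Scnn1b*-Tg. *Mcm2*, 59.0 kb to the left, had 470.3, 522 and 722 in WT against 450.4, 526, 584 and 677 in *Scnn1b*-Tg. At both genes the ranges overlapped almost fully, with log2 fold changes of 0.01 and -0.02. *Abtb1*, which encodes an ankyrin repeat and BTB domain protein, had 2930.2 ± 680.2 (SD, n = 3) in WT against 2802 ± 428 (SD, n = 4) in *Scnn1b*-Tg. *Mgll*, 233 kb to the left, had 735, 952 and 1177 in WT against 762, 1031, 832 and 1239 in *Scnn1b*-Tg, giving a log2 fold change of 0.02 (SE 0.20). *Podxl2*, a sialomucin gene, had 27.0 ± 17.2 (SD, n = 3) and 30.8 ± 11.5 (SD, n = 4), giving a log2 fold change of 0.27 (SE 0.43). Its weaker peak over the start (88874922 to 88875408) had 12.8, 3.56 and 35.4 in WT against 11, 32.6, 22.1 and 23.9 in *Scnn1b*-Tg, overlapping widely. The log2 fold change of this weaker peak, 0.74, was the highest within 100 kb to the left of the block. On the right the nearest coding gene was *Plxna1*, a semaphorin receptor, 297 kb away. Its promoter had 392, 498 and 710.2 in WT against 444, 676, 751 and 736 in *Scnn1b*-Tg, giving a log2 fold change of 0.30 (SE 0.23), with overlapping genotypes. *Chchd6*, a gene of the mitochondrial cristae complex, and *Txnrd3*, a thioredoxin reductase, had 0.02 and -0.01. The next genes, *Vmn1r40* and *Vmn1r41*, had no peak within 1000 bp of a start.

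Over the whole left flank, 317 peaks, the median log2 fold change was 0.01, and over the right flank, 223 peaks, it was 0.04, beside -0.01 on the rest of chromosome 6 (4473 peaks) and -0.01 over all peaks. Averaged over peaks, the log2 value of the left flank was 7.34 ± 0.06 (SD, n = 3) in WT against 7.38 ± 0.05 (SD, n = 4) in *Scnn1b*-Tg, and that of the right flank 7.05 ± 0.06 (SD, n = 3) and 7.14 ± 0.05 (SD, n = 4). The right flank libraries were 7.00, 7.03 and 7.11 in WT against 7.06, 7.18, 7.16 and 7.17 in *Scnn1b*-Tg, so that all but *Scnn1b*-Tg replicate 1 were above every WT library. The difference between the genotype means was within the spread between replicates in the left flank and larger than the SD of either genotype in the right flank.

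**Figure D3:**
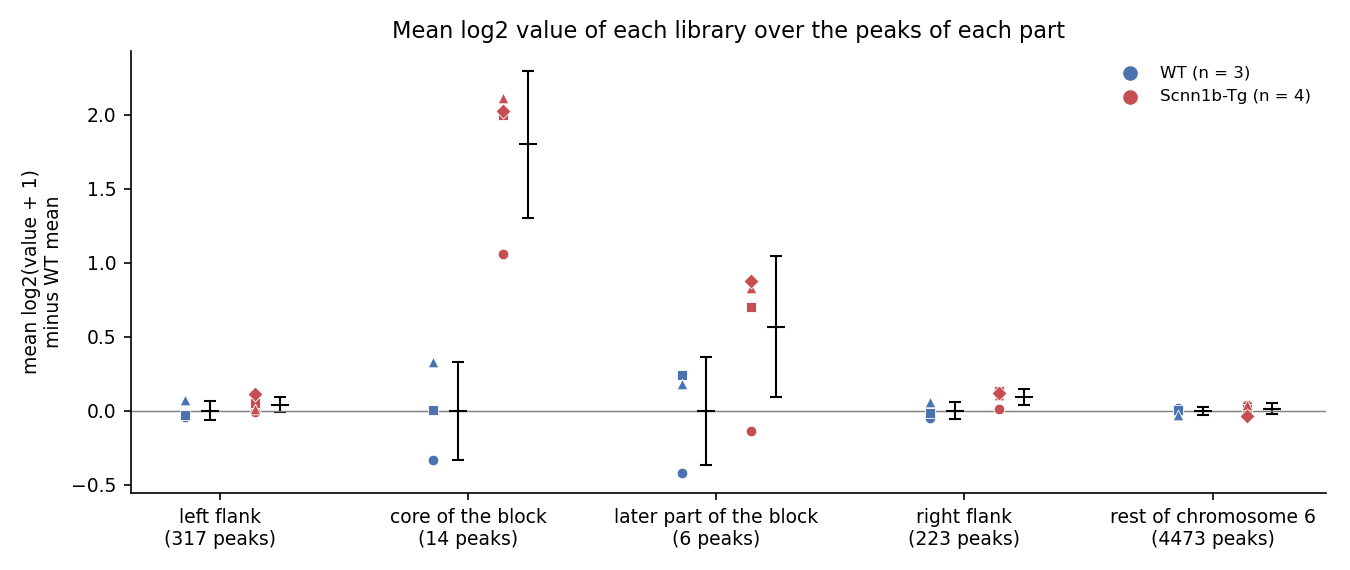
Mean log2(value + 1) of each library minus the WT mean over the peaks of the left flank, the core, the later part of the block, the right flank and the rest of chromosome 6; points are libraries and bars the mean ± SD of 3 WT (blue) and 4 *Scnn1b*-Tg (red) libraries. In the core *Scnn1b*-Tg replicate 1 lies at 1.06 and the other 3 *Scnn1b*-Tg libraries at 2.00 to 2.12, while in the flanks all libraries lie between -0.05 and 0.13.

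Against the whole of chromosome 6 the block was read in windows of 20 neighbouring peaks. The 4435 windows outside the span had mean log2 fold changes of -0.34 to 0.45, and the 502 windows of the span without a block peak -0.12 to 0.40. The window that holds the block had 1.43. The longest run of neighbouring peaks with a log2 fold change above 1 was 14 in the span, which is the core, and 2 on the rest of chromosome 6. Span, block and core were chosen for high fold changes, and the window length is that of the block. These comparisons with the rest of chromosome 6 are therefore descriptions only. By the score that drew the block, which gave it 18.6, the next block of chromosome 6 lay outside the span at *Gpnmb*, *Malsu1* and *Igf2bp3*, with 6 peaks over 50.4 kb, a score of 1.63 and a mean log2 fold change of 0.77. A further one lay inside the span, 5 peaks of *Prickle2* from 92443475 to 92471656, with a score of 1.24 and a mean of 0.75.

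**Figure D4:**
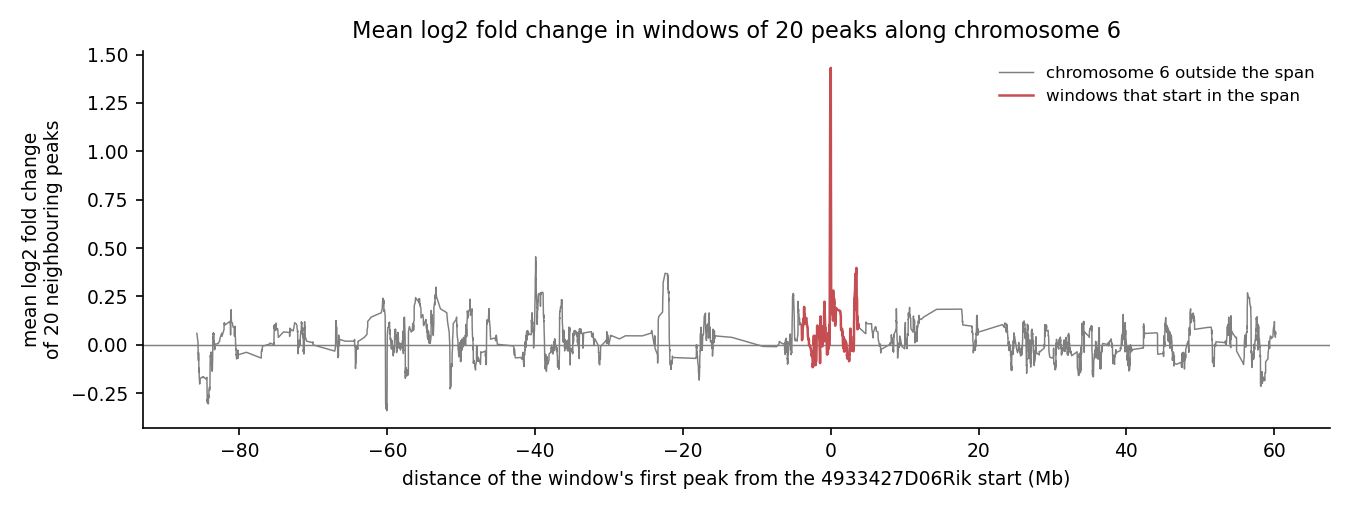
Mean log2 fold change of each window of 20 neighbouring peaks along chromosome 6, against the distance in Mb of the window's first peak from the *4933427D06Rik* start; red marks windows that start within the span. The peak of 1.43 is the block itself, and all windows outside the span lie between -0.34 and 0.45.

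**Figure D5:**
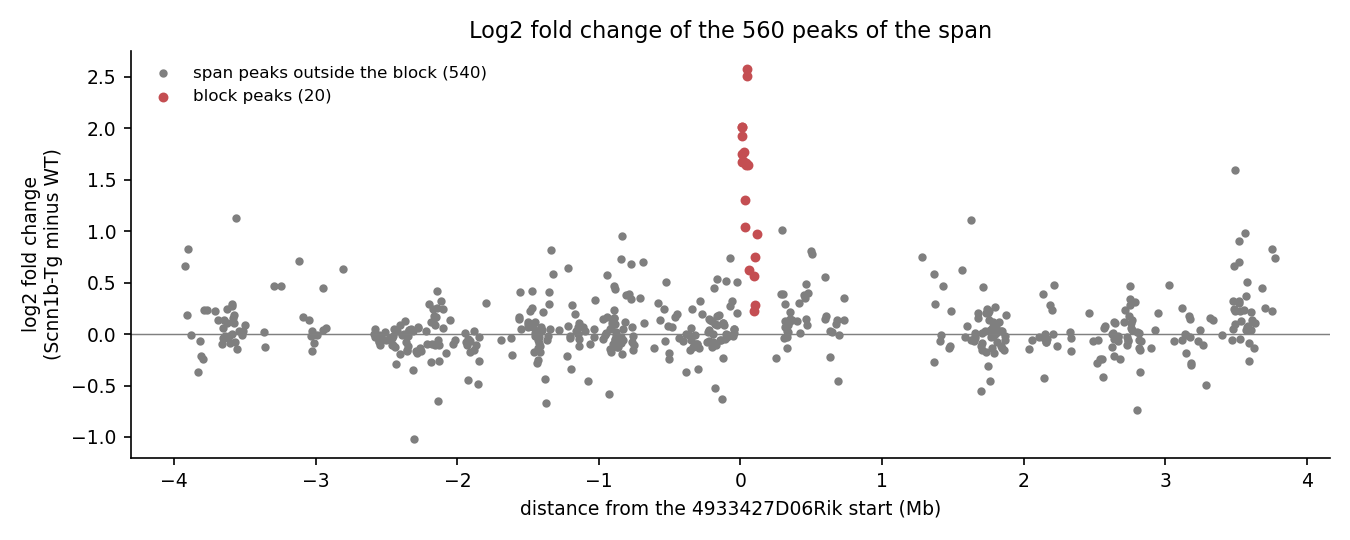
Log2 fold change (*Scnn1b*-Tg minus WT) of the 560 peaks of the span against distance in Mb from the *4933427D06Rik* start, with the 20 block peaks in red. The block peaks run from 0.22 to 2.57 and the other 540 peaks from -1.02 to 1.60.

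In counts, a log2 fold change above 1 was reached by 18 of the 560 span peaks, 14 of them in the block, beside 0.521% of all peaks. A value above 0.5 was reached by 52 span peaks, 18 of them in the block, beside 4.3% of all peaks. The genotypes did not overlap, with *Scnn1b*-Tg higher, at 24 span peaks, 13 of them in the block, beside 1.92% of all peaks. Outside the block this held for 11 of 540 peaks (2.04%), a share near that of all peaks. *Scnn1b*-Tg was lower without overlap at 1 span peak, beside 1.31% of all peaks. Without *Scnn1b*-Tg replicate 1 the block count was 19 of 20, beside 3.71% of all peaks. Without WT replicate 3 and *Scnn1b*-Tg replicate 4 it was 14, beside 8.30% of all peaks.

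No peak of the span passed an adjusted p under 0.05 with an absolute log2 fold change above 1 in limma (0 of 560), beside 1 of all peaks (0.00111%), which lies on chromosome 6 at *Igf2bp3*. An unadjusted limma p under 0.05 was given to 27 span peaks, 16 of them in the block, beside 2.01% of all peaks. The edgeR quasi-likelihood test on whole reads called 0 peaks (0%), with 27 span peaks at an unadjusted p under 0.05. DESeq2 called 6 span peaks, all of them core peaks (block peaks 1, 2, 3, 4, 6 and 7), beside 0.0454% of all peaks. As the span was selected on this contrast, nothing is read from these counts. The paper's own test, edgeR through DiffBind, gave many more regions over the genome at the same thresholds. Its calls were not used here.

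Outside the block the largest rise among peaks with a mean of at least 20 was in *Prickle2*, a gene of planar cell polarity (92443475 to 92443916). It had 12.8, 14.2 and 17.1 in WT against 40.2, 29.9, 83.8 and 44.8 in *Scnn1b*-Tg, giving a log2 fold change of 1.60 (SE 0.36). A second *Prickle2* peak in intron 1 had 42.5, 11.9 and 42.2 in WT against 63.3, 48.0, 56.9 and 46.1 in *Scnn1b*-Tg. Both showed no overlap, while the strongest promoter peak of *Prickle2* had a log2 fold change of 0.07. An intergenic peak assigned to the microRNA gene *Mir6376* (88116684 to 88117341), to the left of the block, had 23.8, 27.3 and 21.7 in WT against 35.3, 54.4, 50.6 and 54.0 in *Scnn1b*-Tg, giving a log2 fold change of 0.96 (SE 0.27). A distal peak of *Gata2* (88165801 to 88166765), 27.1 kb from a start, had 143, 123 and 124 in WT against 168, 149.6, 166 and 205 in *Scnn1b*-Tg, also without overlap, and an intergenic *Rab7* peak had 261 ± 13.4 (SD, n = 3) and 290.5 ± 10.4 (SD, n = 4). None of these peaks passed the limma test. A later-intron peak of *Aldh1l1* had a log2 fold change of 1.11 that came from a single WT library at 1.19, with the other 2 at 20.4 and 49.1.

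Outside the block 8 of the 540 peaks (1.48%) had a log2 fold change under -0.5 and 34 (6.30%) above 0.5, beside 2.12% and 4.3% of all peaks, so that falls were the fewer in both. The peak of *Slc6a6*, the taurine transporter, at 91750874 to 91751360, 690 bp from an annotated start, had 39.1, 66.4 and 40.0 in WT against 23.1, 38.1, 25.3 and 26.4 in *Scnn1b*-Tg, giving a log2 fold change of -0.74 (SE 0.30), and was the single span peak with *Scnn1b*-Tg lower without overlap. Another *Slc6a6* peak, at 91699427 to 91699821, went the other way, also without overlap. Its values were 50.2, 51.0 and 46.8 in WT against 69.4, 52.6, 53.8 and 79.8 in *Scnn1b*-Tg (log2 fold change 0.35). Its lowest *Scnn1b*-Tg library was close to its highest WT library. An *Anxa4* peak (annexin A4) had a log2 fold change of -0.65. The lowest value, -1.02 at a peak downstream of *Mxd1*, came from *Scnn1b*-Tg replicate 3 alone, at 1.58 (1 read), where the other 3 had 41.4 to 58.0. The strongest peaks of the span were flat. At *Iqsec1*, an ARF exchange factor, 2 peaks had WT means of 3427 and 3345 and log2 fold changes of 0.03 and 0.00, at *Arhgap25*, a Rac GTPase-activating protein of phagocytes, 2 had 3221 and 3060 with 0.07 and 0.03, and at *Cct7*, a chaperonin subunit, 1 had 2899 with 0.09.

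By the role of the gene, promoters were read at 1 peak per gene, the one nearest to an annotated start and the strongest where several covered a start. Of 74 genes with a peak within 1000 bp of a start, 33 were higher in *Scnn1b*-Tg at this peak. The log2 fold changes had a median of -0.01 and ran from -0.21 to 0.30, none passed the test, and at none of these 74 peaks did the genotypes separate. Over all peaks 0.00111% passed it, 1.92% were higher and 1.31% lower in *Scnn1b*-Tg without overlap. With shares this small, nothing is read from these counts over 74 peaks. Over all 115 peaks within 1000 bp of a start, which include weaker ones at further starts, the range was -0.74 to 0.82 with a median of -0.01. The lower *Slc6a6* peak above, at -0.74, was the single one without overlap. For the secretory pathway and endosome, 11 of 11 listed genes had such a peak, 5 higher, with a median of -0.01. *Sec61a1*, of the protein-conducting channel of the endoplasmic reticulum, had -0.04, the Golgi GTPase gene *Rab43* -0.05, and *Rab7* had 654, 777 and 828 in WT against 726, 771, 830.3 and 905 in *Scnn1b*-Tg (0.10). Of 14 listed transcription and chromatin genes 8 had such a peak, with a median of 0.00. The nuclear receptor gene *Nr2c2* had 0.01, the MYC antagonist gene *Mxd1* 0.06, and *Gata2* had 135, 194 and 277 in WT against 138, 203, 169 and 223 in *Scnn1b*-Tg (-0.11).

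Of 5 listed replication and repair genes 3 had a promoter peak, *Mcm2*, the nucleotide excision repair gene *Xpc* (0.06) and *Hmces* (-0.02), a gene that protects abasic sites. Of 10 genes of lipid, redox and carbohydrate metabolism 8 had one, with a median of -0.04, among them *Txnrd3*, *Pcyox1* (-0.07), which encodes prenylcysteine oxidase, and *Gfpt1* (-0.06), the entry enzyme of hexosamine synthesis. The sepiapterin reductase gene *Spr* had -0.21, the lowest of the 74. Of 12 genes of RNA and protein machinery 11 had a promoter peak, 4 higher, with a median of -0.04, *Nup210* of the nuclear pore at -0.05 and the mitochondrial import gene *Chchd4* at -0.06. Of 11 genes of secreted factors, receptors and adhesion only 4 had one: *Plxna1*, *Prokr1* (-0.02), and with low values *Antxr1* (-0.21) and *Wnt7a* (0.21). Of 9 cytoskeleton and GTPase genes 5 had one, with *Arhgap25* at -0.11, and all 3 transporter genes, *Slc6a6*, *Sfxn5* and *Slc41a3*, lay between -0.04 and -0.03 at the peak nearest to a start, beside -0.74 at the further *Slc6a6* peak. The pheromone receptor genes of the vomeronasal organ, which are expressed chiefly there, filled a stretch of 0.572 Mb to the right of *Txnrd3*. It held 23 *Vmn1r* genes in GENCODE, of which 15 are annotated as protein-coding, and 1 peak. None of the 9 *Vmn1r* genes named in the table had a peak within 1000 bp of a start in the span.

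By annotation the block was made of intron 1 peaks in all 20 cases, since it lies in 1 intron. In the span outside it 30.9% of peaks were at promoters, 17.0% in intron 1, 19.1% in later introns and 23.0% in distal intergenic sequence, beside 31.4, 12.2, 21.7 and 25.8% on the rest of chromosome 6. Block peaks had a median width of 434.5 bp, core peaks 385 bp and the later peaks 861 bp, beside 672.5 bp in the span outside the block. The 545 peaks of the rest of chromosome 6 that lie in intron 1 of a gene had a median log2 fold change of 0.01 and 1 of them exceeded 1.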

How the data were processed

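ATAC-seq libraries of sorted AMs from 3 WT and 4 *Scnn1b*-Tg mice were used, per the labels. According to the methods, reads were aligned to mm10 and peaks called by the authors with the pipeline of the ENCODE consortium, after which DiffBind formed a consensus of peaks found in several samples and ChIPseeker annotated it. The submitters' processing notes also name edgeR and DESeq2. The deposited signal per library is a read count per peak scaled by 1 factor per library. All values (100%) were whole multiples of the smallest value of their column, with a tolerance of 1e-06 reads, which gave back whole reads. The deposited log2 columns (mean signal and fold change by the authors) and the deposited p-value and FDR columns of the authors' own test were not used. The columns give a genotype and a number that no label ties to a sample, so label numbers and batches could not be assigned, and nothing says which libraries share a litter. Pairs of libraries had equal reads at 1.76% of peaks at most, so none was a copy.

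limma 3.58.1 (R 4.3.3; trend, robust) was fitted to log2(value + 1) of all 90376 peaks with a single term for genotype, Benjamini-Hochberg adjustment and no filter on low values. Fold changes are *Scnn1b*-Tg minus WT. edgeR 4.0.16 (quasi-likelihood) and DESeq2 1.42.0 on whole reads, limma without trend, pseudocounts of 0.5 and 5, a minimum mean of 20, median scaling, quantile normalization, score offsets of 0.25 and 1 and each library left out were alternatives. The fits and the block search were run on simulated data as a check of the code only. There the planted block had the same change at every peak and in every *Scnn1b*-Tg library, unlike the block found here. Strings were searched in the central 300 bp of each peak in GRCm38, whose chromosomes hold all peaks.

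The members, the block score and the gene lists were chosen with earlier results of these data known. Peaks named are those of the block, 5 on each side, the ends of the span, the 5 of highest mean, the 3 largest rises and falls outside the block with a mean of at least 20, the 2 of smallest p outside it, and promoter peaks of listed genes. Other peaks without overlap that are named (*Gata2*, *Rab7*, the second of *Prickle2*, the later-intron peak of *Plxna1* and the higher peak of *Slc6a6*), and the weaker *Podxl2* peak, were picked after their values were seen. Replicates are separate samples, and p-values measure only the spread between them.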

Additional observations from a re-analysis of the deposited data

Results flagged for a closer look

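Of 54 sets of 4 *Scnn1b*-Tg values examined, 3 had a library far from the other 3, and chance alone does so in about 1 in 20 sets. All 3 were averages over the block, all had *Scnn1b*-Tg replicate 1 as the low library, and they share peaks, so they count as 1 observation. The mean log2 value over the 20 block peaks was 5.44 in this library and 6.35 to 6.47 in the other 3. Over the core it was 4.89 against 5.83 to 5.94. Over the later part of the block it was 6.71 against 7.56 to 7.73. Sets of 3 WT values were not examined. The reads in peaks of this library, 27561483, were the second lowest, and *Scnn1b*-Tg replicate 3, with the fewest, had the highest block mean of all. Whether read depth has a part in the low values was not tested.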

How the results depend on the processing

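Of 102 recomputed values 95 moved by less than the replicate spread or, for counts, stayed within 1.5 times. The others concern 2 counts. DESeq2 called 6 span peaks where limma called 0. Span peaks higher in *Scnn1b*-Tg without overlap were 24 with all libraries, 30 to 62 when 1 library was left out, and 84 without WT replicate 3 and *Scnn1b*-Tg replicate 4, an alternative chosen after seeing the data; fewer libraries overlap less by construction. The block held 14 to 22 peaks with 1 library left out and 14 to 26 over score offsets, with a mean log2 fold change of 1.29 to 1.68 (1 library left out) and 1.19 to 1.80 (offsets). The flank medians stayed between 0.00 and 0.10. No paired analysis was possible because the columns carry no label numbers and batches could not be assigned. Peaks with few reads, such as those with 1 read in WT, limit the precision of the largest fold changes.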
